A study of Mus musculus with 8 samples.

Results

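The genes described here are 9 of the complement system: the components C3, C4b, C2 and Cfb, the stabilising factor Cfp, the inhibitors Serping1 and Cd59a, and the receptors C3ar1 and C5ar1. They were taken by symbol from the array, which holds 37008 distinct gene names, and 14 of its 56605 probes carry one of the 9 names. The tissue was the soleus, a slow muscle of the calf, from male C57BL/6J mice that were 8 weeks old at the start and 14 weeks old when sampled. All of them ate High-fat diet 32, so no group on an ordinary diet enters. In the Pg group, 4 samples came from mice given Porphyromonas gingivalis, a bacterium of gum disease, in 100 µL of saline through a feeding needle during 6 weeks. In the Co group, 4 samples came from mice given saline alone. The question was how the bacterium changes expression in this muscle. The labels give neither the number of bacteria nor a measure of infection. They do not state that each array is a separate mouse, so every p-value is about the spread among these samples, which may be technical.

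Complement is a set of blood and tissue proteins that mark microbes and damaged cells. The classical and lectin pathways cleave C4 and C2, the alternative pathway uses factor B and properdin, and all of them build enzymes that split C3 into a small signal peptide and a fragment that binds surfaces. The liver supplies most of the circulating proteins, while macrophages, fibroblasts and fat cells also make several of them. In whole muscle RNA, fewer cells of a type and less RNA per cell cannot be told apart.

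Levels are given as the log2 spot signal of 1 probe minus the 75th percentile of its array, so 0 is that percentile. Differences are Pg minus Co on the log2 scale, with the standard error (SE). A gene was called at an adjusted p under 0.05 in limma's fit to all 22272 genes tested, with Benjamini-Hochberg adjustment. The Pg arrays had 34853 to 35367 probes well above background and the Co arrays 30180 to 34077. Arrays correlated at 0.994 to 0.995 within Pg, 0.989 to 0.991 within Co and 0.989 to 0.992 between the groups. All 8 arrays lay on 1 slide, Pg in one column of it and Co in the other, so slide position and group cannot be told apart. The slow-fibre markers were well above background on all 8 arrays, with Tnnt1, a slow troponin, the brightest at 9.41 in Pg and 9.27 in Co. Of 6 liver markers, Alb, Apoa1, Ttr, Fgb and Ahsg did not pass the filter on dim probes, and Serpina1a passed at -4.70 in Pg and -4.69 in Co. The scanner software marked Pg 2 for evaluation and the other 7 arrays as in range. Without Pg 2, as without any other single array, 0 of the 9 complement genes passed.

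Both probes of C3 and of Cfp are printed because the text sets them side by side, and 2 probes for C4 because they cannot tell C4b from its near copy C4a. Each is a 60-base DNA probe written 5′ to 3′, and the positions are on the minus strand of mouse build mm9.
C3 brighter probe, chr17:57343416-57343475: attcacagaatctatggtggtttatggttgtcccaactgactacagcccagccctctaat
C3 dimmer probe, chr17:57343678-57343737: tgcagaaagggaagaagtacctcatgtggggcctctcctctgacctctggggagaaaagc
C4b dimmer probe, chr17:34866361-34866420: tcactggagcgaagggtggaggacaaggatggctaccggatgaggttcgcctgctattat
C4a probe, chr17:34948806-34949824: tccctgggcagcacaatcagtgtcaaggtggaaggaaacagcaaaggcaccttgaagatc
Cfp brighter probe, chrX:20502742-20502801: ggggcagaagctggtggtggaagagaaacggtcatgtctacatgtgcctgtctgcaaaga
Cfp dimmer probe, chrX:20504475-20504676: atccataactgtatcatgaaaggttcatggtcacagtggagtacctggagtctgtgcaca
The dimmer C4b probe and the C4a probe are each annotated in the files to transcripts of both genes. The brighter C4b probe, which lies at chr17:34865367-34865426, lists a C4b transcript and none of C4a. The C4a probe covers 1019 bases of the genome and the dimmer Cfp probe 202, so each crosses at least 1 intron.

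None of the 9 complement genes passed the adjusted threshold between the groups, which does not show that they were unchanged. Limma's fit called 0 of 9, against 0.117% of all genes tested. At an unadjusted p under 0.05 there were 2 of the 9, Cfp lower and C3ar1 higher in Pg, beside a background of 19.7% of all genes (9.68% lower in Pg). That count was 0 without Pg 1, without Pg 2 or without Co 4, 1 without Pg 4 or without Co 2, and 4, all lower in Pg, without Co 3. Over all 22272 genes the same count ran from 3538 without Pg 2 to 4634 without Co 3. The 2 groups overlapped for all 9, while 13.4% of all genes had groups that did not overlap. The difference was negative for 7 of the 9 and for 52.3% of all genes. The median difference was -0.30 over the 9 and -0.011 over all genes. The median of the 9 was -0.093 without Pg 1, and with median centring it was -0.15, where that of all genes was 0.14. The direction depends on which source names the groups: the columns of the authors' deposited table carry the 2 group names exchanged relative to the sample records used here. In the authors' deposited table, which was also processed otherwise, 8 of the 10 rows for these genes have the opposite sign. The rows of C5ar1 (-0.069) and of the dimmer Cfb probe (-0.015) have the same sign as here.

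C3, whose cleavage is the step shared by all pathways, was the gene with the most negative difference of the 9. Its level was 2.05, 1.83, 2.37 and 2.07 on the Pg arrays 1 to 4, against 3.72, 2.70, 1.92 and 2.49 on the Co arrays 1 to 4. The 4 Pg values lay close together, Co 1 stood highest, and Co 3 lay within the Pg range. The means were 2.08 ± 0.22 in Pg and 2.71 ± 0.75 in Co (SD, n = 4 each). The difference of -0.63 ± 0.34 (SE; 95% interval -1.43 to 0.16) is 0.645-fold and did not pass, at an adjusted p of 0.352 (limma). Without Co 1 the difference was -0.30, and without Co 3 it was -0.89. The authors' deposited table gives C3 a log2 difference of 0.46 between its columns named Pg and Co, with an adjusted p of 0.376. With the authors' processing as rebuilt, the brighter C3 probe alone gave -0.61. For C2, which has 1 probe, the rebuilt and deposited sizes were equal. The 0.46 may thus not be a value of the brighter C3 probe alone.

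C4b encodes the mouse C4 that classical and lectin proteases cleave. It read 0.37, 0.84, 0.52 and 0.38 on the Pg arrays, against 2.14, 1.14, 0.41 and 0.74 on the Co arrays. As for C3, Co 1 was far above the rest and Co 3 and Co 4 lay among the Pg values. The difference was -0.58 ± 0.34 (interval -1.38 to 0.22, adjusted p = 0.390 in limma's fit), and -0.23 without Co 1. The spread between the lowest and the highest Co array was 1.73 for C4b and 1.80 for C3, against 0.47 and 0.54 among the Pg arrays.

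C2 is the protease that joins C4 in the convertase of the classical and lectin pathways. It read -1.60, -0.88, -1.33 and -1.54 on the Pg arrays, against -0.52, -1.60, -1.54 and -1.14 on the Co arrays. The highest array was again Co 1, the next was Pg 2, and the lowest was Co 2. The difference was -0.13 ± 0.26 (interval -0.74 to 0.48, adjusted p = 0.806 in limma's fit), and without Co 1 it turned to 0.094.

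Cfb encodes factor B, which takes the place of C2 in the alternative pathway. Its levels were -1.41, -0.86, -0.98 and -0.99 on the Pg arrays, against -0.22, -0.89, -1.38 and -0.92 on the Co arrays. Co 1 and then Pg 2 were the highest, the same 2 arrays and the same order as for C2. The difference was -0.21 ± 0.24 (interval -0.76 to 0.34, adjusted p = 0.653 in limma's fit), and without Co 1 it was 0.0011.

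Cfp encodes properdin, which stabilises the alternative convertase. Its levels were 0.06, -0.03, 0.43 and 0.30 on the Pg arrays, against 0.45, 1.28, 0.26 and 0.97 on the Co arrays. Here Co 2 and Co 4 stood above all Pg arrays, Co 1 lay just above Pg 3, and Co 3 lay within the Pg range. The difference was -0.55 ± 0.23 (interval -1.08 to -0.020), or 0.683-fold, with an unadjusted p of 0.0438 and an adjusted p of 0.240 (limma). It was -0.37 without Co 2.

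**Figure D1:**
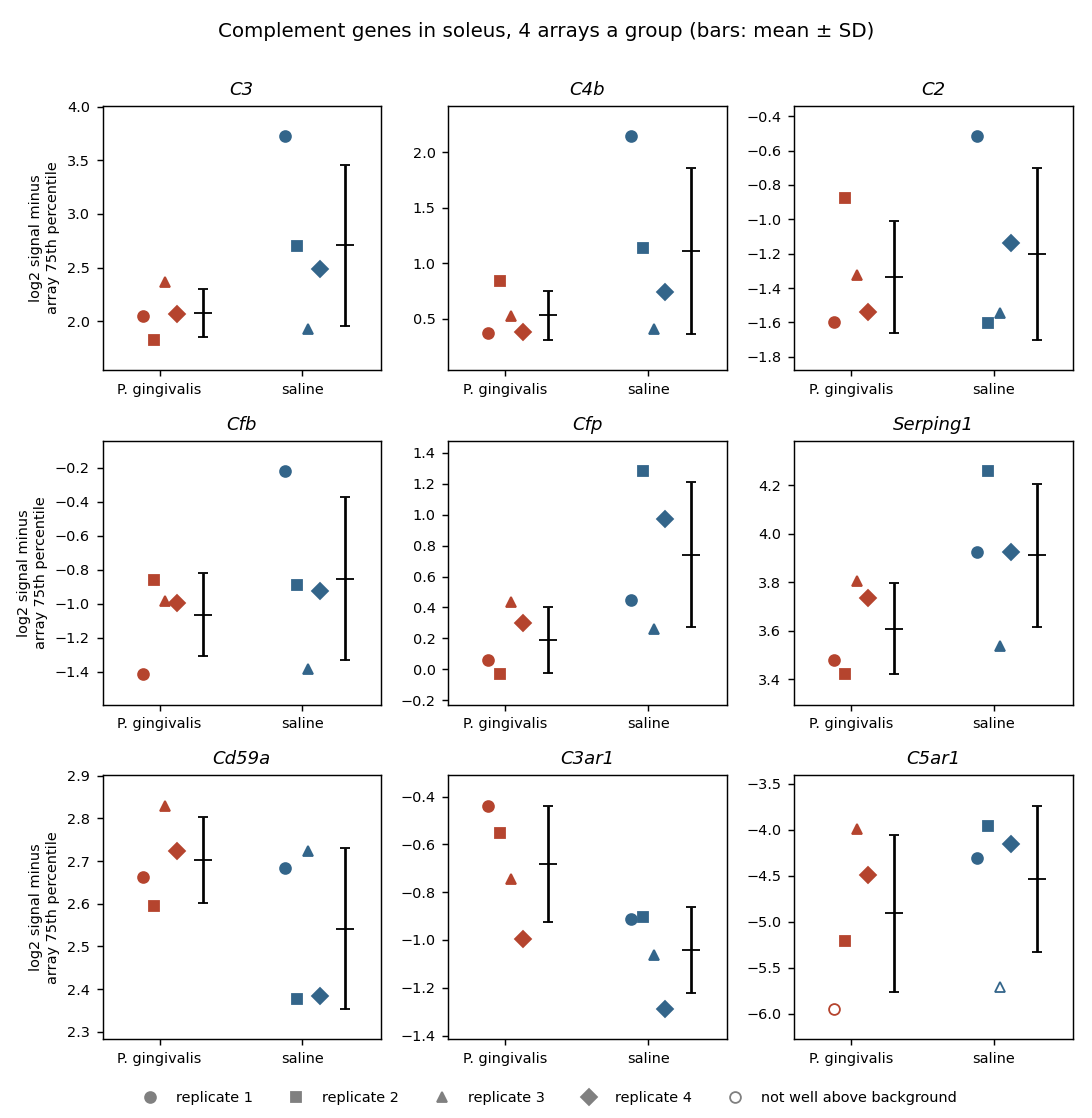
Level of each complement gene on each array (vertical axes: log2 signal minus the array's 75th percentile, each panel with its own range), Pg at the left and Co at the right. Marker shapes give the replicate, bars the mean ± SD of 4 arrays, and open symbols arrays not well above background. The groups overlap in all 9 panels, and Co 1 is the highest array for C3, C4b, C2 and Cfb.

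Serping1 encodes the C1 inhibitor, which blocks the proteases that start the classical pathway. It read 3.48, 3.42, 3.80 and 3.73 on the Pg arrays, against 3.93, 4.26, 3.54 and 3.92 on the Co arrays. All Co arrays but Co 3 were above all Pg arrays. The difference was -0.30 ± 0.16 (interval -0.67 to 0.064, adjusted p = 0.333 in limma's fit), and -0.19 without Co 2.

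Cd59a encodes a membrane protein that keeps the attack complex from forming on the cell's own surface. It read 2.66, 2.59, 2.83 and 2.72 on the Pg arrays, against 2.68, 2.38, 2.72 and 2.38 on the Co arrays. It varied least of the 9, with 1.37-fold between its lowest and its highest array. The low values were on Co 2 and Co 4, and Co 1 and Co 3 lay inside the Pg range. The difference was 0.16 ± 0.10 (interval -0.076 to 0.40, adjusted p = 0.420 in limma's fit), and 0.11 without Co 2.

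C3ar1 encodes the receptor of the C3 peptide, found on myeloid cells among others. It read -0.44, -0.55, -0.74 and -0.995 on the Pg arrays, against -0.91, -0.90, -1.06 and -1.29 on the Co arrays. Pg 1, 2 and 3 were above all Co arrays, and Pg 4 lay between Co 1 and Co 3. The difference was 0.36 ± 0.14 (interval 0.038 to 0.68), or 1.28-fold, with an unadjusted p of 0.0326 and an adjusted p of 0.213 (limma). With arrays centred on their median in place of the 75th percentile, the difference was 0.51 with an adjusted p of 0.0469. That scaling moved the median difference of all genes to 0.14, against -0.011. With it, 2384 of all 22272 genes passed, 2288 of them higher in Pg.

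C5ar1 encodes the receptor of the C5 peptide, through which neutrophils and macrophages are attracted. It was dim, and was not well above background on Pg 1 and Co 3. Its 1 probe has 60 bases, but the annotated position covers only 42 bases of the genome. The levels were -5.95, -5.21, -3.99 and -4.49 on the Pg arrays, against -4.31, -3.96, -5.71 and -4.16 on the Co arrays. The 2 lowest readings are thus bounds, 1 in each group, and the remaining arrays of the groups overlapped. The difference was -0.37 ± 0.51 (interval -1.56 to 0.81, adjusted p = 0.714 in limma's fit), and -0.028 without Pg 1.

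**Figure D2:**
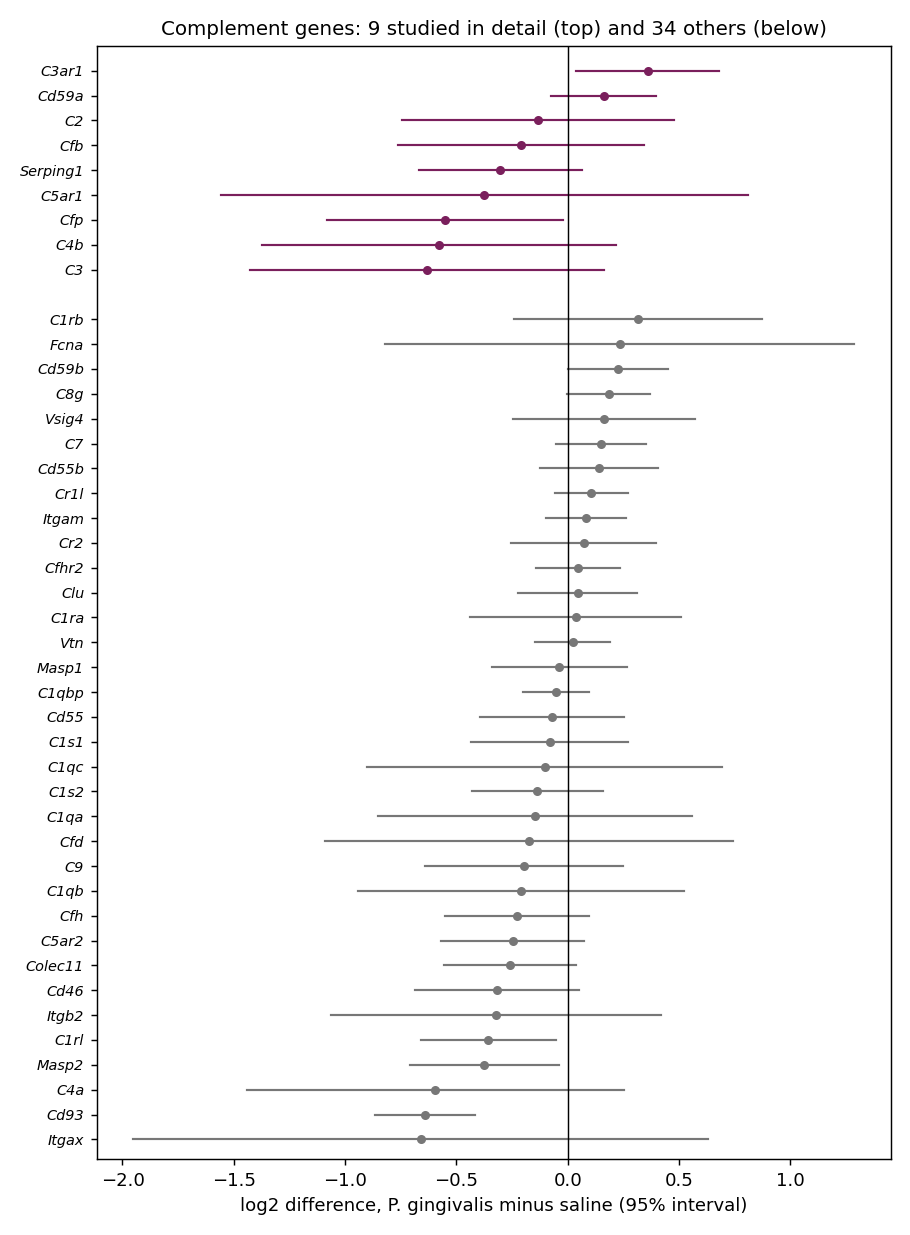
Log2 difference, Pg minus Co, with its 95% interval from limma's fit, for the 9 complement genes (top) and the 34 other complement genes tested (below). The intervals of Cfp, C3ar1, Cd93, Masp2, C1rl and Cd59b do not cross 0, and no gene shown passed the adjusted threshold.

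A second probe was measured for C3, C4b, Cfb, Cfp and Cd59a, and in each case it gave the sign of the brighter probe. The dimmer C3 probe differed by -0.36 ± 0.28 and the dimmer C4b probe, annotated to C4a as well, by -0.49 ± 0.33 (SE). For Cfb the dimmer probe gave -0.19 ± 0.27, for Cfp -0.43 ± 0.29 and for Cd59a 0.15 ± 0.12. Both probes of each of the 5 genes had the same highest array. After each probe was set to its own mean, the widest gap between the 2 probes of a gene on any array was 0.35, for Cfp. The high reading of C3 on Co 1 was thus seen at both positions, although the dimmer probe's total range was narrower, at 1.43 against 1.89.

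**Figure D3:**
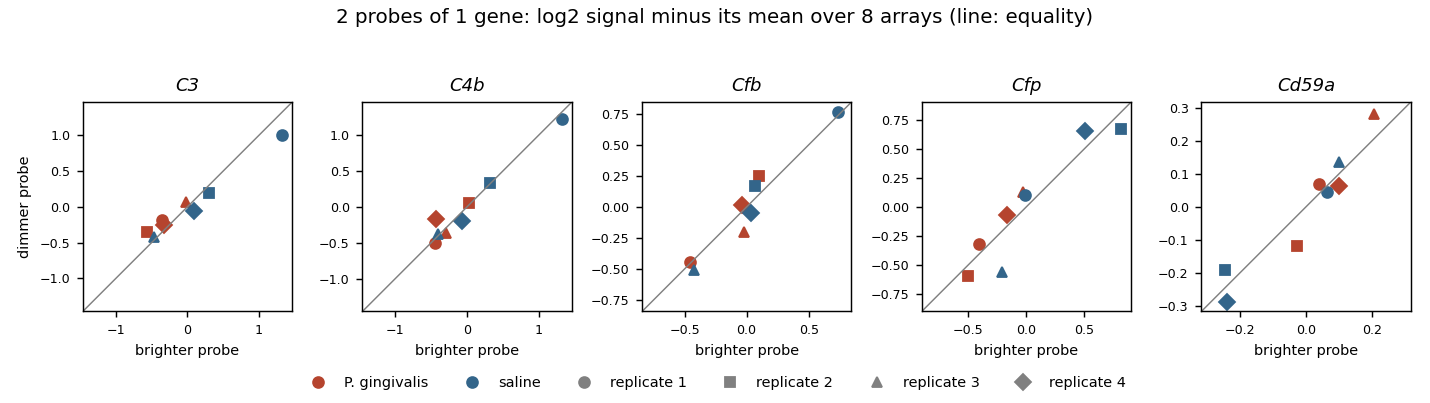
Dimmer probe (vertical) against brighter probe (horizontal) for the 5 genes with 2 probes, each as log2 signal minus the probe's mean over the 8 arrays, Pg in red and Co in blue, with the line of equality. Co 1 is at the upper right for C3, C4b and Cfb, and the widest gap between probes of a gene is 0.35, for Cfp.

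The 9 genes fell into a few patterns across the arrays, described here without a test because each is a reading of 8 points. Co 1 was the highest array for C3, C4b, C2 and Cfb, and Co 2 for Cfp, Serping1 and C5ar1. Pg 1 was the highest for C3ar1 and Pg 3 for Cd59a. Over all genes Co 1 was the highest array for 14.5% and Co 2 for 13.7%. By the root mean square difference of centred log2 values over the 8 arrays, C3 and C4b were each other's nearest of the 9, at 0.244. The same held for C2 and Cfb at 0.210 and for Cfp and Serping1 at 0.199. C3ar1 and Cd59a were also nearest to each other, at 0.251, but C3ar1's own spread about its mean was 0.258.

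**Figure D4:**
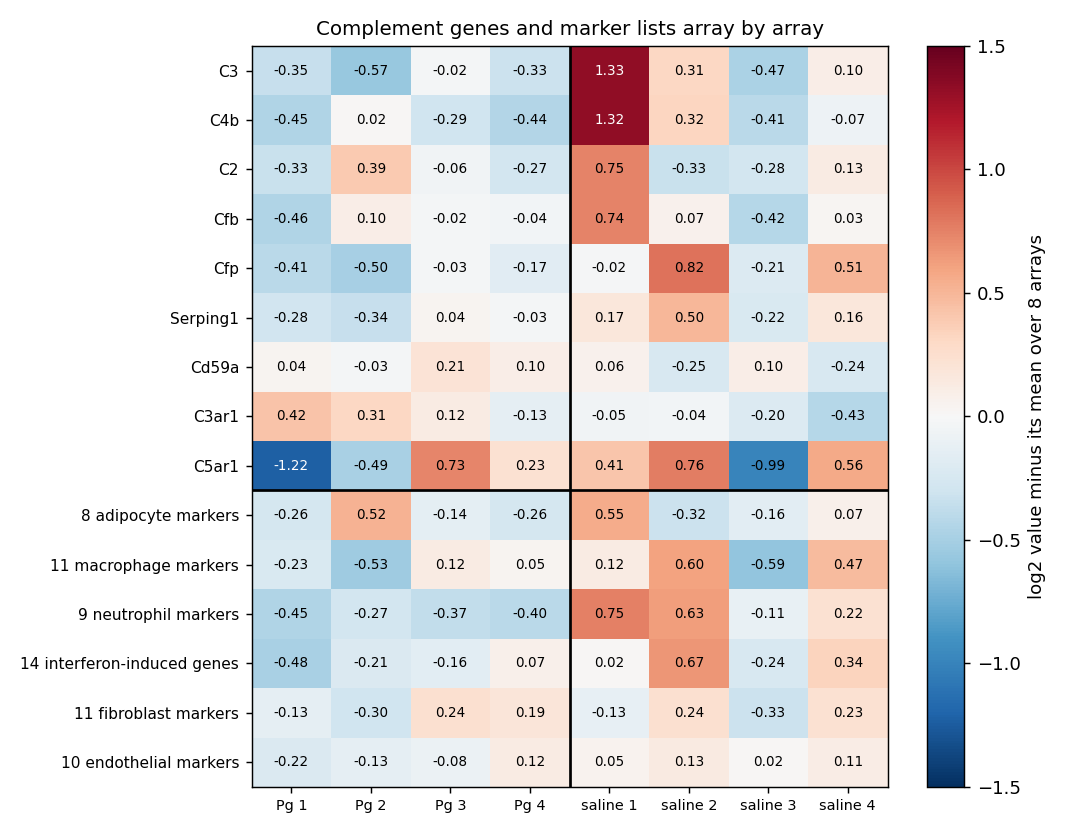
Centred log2 value of each complement gene (upper rows) and mean centred value of each marker list (lower rows) on the 4 Pg and 4 Co arrays. C3 and C4b reach 1.33 and 1.32 on Co 1, adipocyte markers are highest on Pg 2 and Co 1, and macrophage and interferon-induced genes are highest on Co 2.

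Marker genes of other cells moved from array to array as well, and their part in the complement values was not tested. All 8 adipocyte markers were measured, and their mean centred value was 0.52 on Pg 2 and 0.55 on Co 1, the 2 arrays where C2 and Cfb were highest. Not every marker followed: Pg 2 was among the 2 highest arrays for 5 of the 8 and Co 1 for 6. Fabp4, Pparg and Lipe were the ones without Pg 2 among their 2 highest. Their summed signal, most of it from Fabp4, the brightest, ran from 131 to 136 in Pg and from 118 to 146 in Co. Its unit is the array's 75th percentile. Adipoq, the fat-cell hormone adiponectin, read 2.06 on Pg 2 and 1.63 on Co 1, and between 0.24 and 0.85 on the other 6. Cfd, a complement protease made by fat cells, read 4.52 on Pg 2 and 4.91 on Co 1, but C3 was at its lowest on Pg 2.

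Macrophage markers passed the filter for 11 of 12, all but Fcgr1, and had mean centred values of 0.60 on Co 2 and 0.47 on Co 4. Those were also the 2 arrays where Cfp was highest. Their lowest means were -0.53 on Pg 2 and -0.59 on Co 3. Their summed signal was 75.3 to 80.0 in Pg and 72.2 to 82.0 in Co, most of it from Ly6c2, the brightest. Of the 11, 7 had a negative difference, beside 52.3% of all genes. Limma's fit called 0, and 0 had an unadjusted p under 0.05, beside 19.7% of all genes.

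Neutrophil markers passed the filter for 9 of 12, without Ltf, Ngp and Retnlg, and stood highest on Co 1 and Co 2, at 0.75 and 0.63. Their sums were 60.2 to 75.1 in Pg and 72.8 to 85.9 in Co, most of each from Csf3r, the brightest. Csf3r differed by -0.24 (adjusted p = 0.213, limma), so the sums mainly describe its probe. The median difference of the 9 was -0.24, and 8 of the 9 differences were negative, beside 52.3% of all genes. Limma's fit called 0 of the 9, and 4 were lower at an unadjusted p under 0.05, beside 9.68% of all genes. Among these 4, Cxcr2 was well above background on only 1 Pg array and 3 Co arrays. It thus passed the filter mostly through Co, where it is higher, and most of its Pg readings are bounds. Ly6g, Camp and Elane differed by -0.11, -0.033 and 0.066. S100a8, an abundant neutrophil protein with the most negative difference of the 9, read between -4.64 and -4.00 in Pg, against -0.69, -1.13, -4.30 and -2.54 in Co. It differed by -2.21 (adjusted p = 0.165, limma). The fibroblast markers, with Dcn the brightest, had a median difference of 0.010, and the endothelial markers, with Egfl7 the brightest, one of -0.13. Among fast-fibre markers, with Tnnt3 the brightest, Myh4 was low on Pg 3 and Co 1, at 4.03 and 1.95.

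Interferon-induced genes were measured for 14 of 15, with Mx1 not passing the filter. All 14 had a negative difference, as had 52.3% of all genes, with a median of -0.38, and limma's fit called 0 of them. At an unadjusted p under 0.05 there were 5, all lower in Pg, beside 9.68% of all genes. Co 2 was the highest array for 12 of the 14, and the sums ran from 22.5 to 29.7 in Pg and from 23.2 to 34.1 in Co. The 3 brightest were B2m, Irf1 and Irf7, with differences of -0.0039, -0.17 and -0.38.

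Beyond the 9, the other complement genes formed a list of 49, of which 34 passed the filter on dim probes. Limma's fit called 0 of the 34, beside 0.117% of all genes. At an unadjusted p under 0.05, 1 was higher and 3 were lower, beside 19.7% of all genes in either direction and 9.68% lower in Pg. The differences were positive for 14 and negative for 20, with a median of -0.076, beside 52.3% negative over all genes. No place in the cascade had a gene past the threshold.

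Of the classical pathway's starters, the 3 chains of C1q, named for their role, had differences of -0.15, -0.21 and -0.10 for C1qa, C1qb and C1qc. All had their highest value on Co 2 and their lowest on Co 3. The C4a probe differed by -0.60 ± 0.37 (SE), with its highest value, -2.56, on Co 1, as for C4b. Because that probe is annotated to C4b as well, it is not a reading separate from C4b. C1rl, a protease like C1r, differed by -0.36 ± 0.13 with an unadjusted p of 0.0264 in limma's fit. C1rb, one of the mouse copies of C1r, differed by 0.32 ± 0.24.

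Of the lectin pathway, Masp2, the protease that cleaves C4 and C2, differed by -0.37 ± 0.14 with an unadjusted p of 0.0330 in limma's fit. Colec11, a sugar-binding starter, differed by -0.26 ± 0.13. Mbl1, Mbl2, Fcnb and Colec10 did not pass the filter. Nor did the terminal components Hc, C6, C8a and C8b, or the regulators C4bp, Cfi, Cpn1, Cpn2, Susd4 and Csmd1.

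Among receptors, Cd93, a surface protein of endothelial and myeloid cells once described as a C1q receptor, came closest to the threshold. It read 2.77, 2.98, 2.89 and 3.09 on the Pg arrays, against 3.60, 3.63, 3.37 and 3.71 on the Co arrays. Every Pg array was below every Co array, as for 6.10% of all genes tested. It differed by -0.64 ± 0.097 (adjusted p = 0.0579, limma). Over the 18 alternatives the adjusted p ran from 0.0139 to 0.155. Limma's fit called 0 of the 10 endothelial markers, of which 7 had a negative difference, beside 52.3% of all genes. At an unadjusted p under 0.05 in that fit, 2 were lower and 1 was higher, beside 19.7% of all genes. The 2 lower ones, Kdr and Egfl7, had the same kind of pattern as Cd93, at -0.55 and -0.40 with adjusted p of 0.0643 and 0.0596. Pecam1, the higher one, differed by 0.18, and the part of endothelial cells in the Cd93 value was not tested. Itgb2, the common chain of the complement receptor integrins, differed by -0.32 ± 0.32, and C5ar2, the second C5 peptide receptor, by -0.25 ± 0.14.

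The genes whose pattern over the 8 arrays was most like that of C3 were Pdxp, Cdt1, Tgif2 and Gm38710, at root mean square differences of 0.160 to 0.212. C3's own spread about its mean on that measure was 0.574, and all 4 had their highest value on Co 1. For C3ar1 the nearest were Cdc45, Obp1a, a probe on chromosome 4 without a gene symbol, and Col17a1, at 0.0802 to 0.0831. These are the closest of 22272 genes and carry no test.

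The promoter of C3 is printed because C3 varied most between arrays among those of the 9 genes measured on all 8. RefSeq's table for build GRCm38.p6 lists a window for 5 of the 9 genes, C3, Cfp, C3ar1, C5ar1 and Cd59a. The C3 window below lies on the minus strand at chr17:57228107-57228386, from 250 bases before the start of transcription to 30 after it, and capitals mark a match to TTGCNNAA, a core of sites for the C/EBP factors.
C3 promoter: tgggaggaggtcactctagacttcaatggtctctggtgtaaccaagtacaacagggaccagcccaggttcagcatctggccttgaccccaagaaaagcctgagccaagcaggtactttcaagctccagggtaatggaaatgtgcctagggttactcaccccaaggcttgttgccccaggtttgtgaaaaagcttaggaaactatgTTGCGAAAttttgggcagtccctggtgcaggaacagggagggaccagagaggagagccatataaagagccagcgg
The match begins 45 bases before the start. Searched on both strands, TTGCNNAA was found in 3405 of 32851 promoter windows of the same length (mouse, all genes listed), and of the 5 windows only in that of C3. TTCNNNGAA, for STAT factors, was in 7.83% of them and in none of the 5. A match describes letters in this window and does not show binding.

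**Figure D5:**
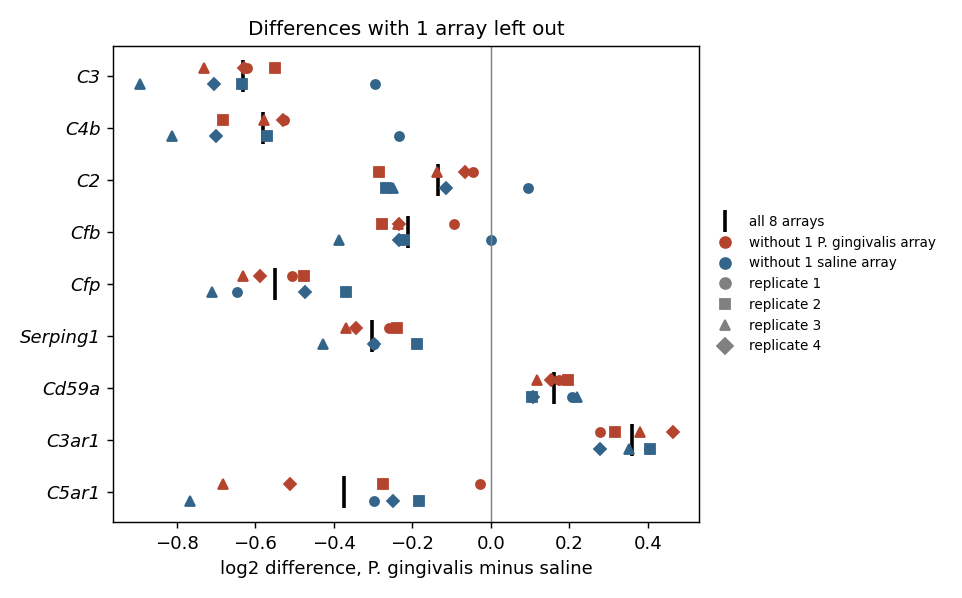
Log2 difference, Pg minus Co, of each complement gene with all 8 arrays (black bar) and with 1 array left out (red: a Pg array; blue: a Co array; shapes: replicate). Leaving out Co 1 moves C3 to -0.30, C4b to -0.23, C2 to 0.094 and Cfb to 0.0011, and leaving out Pg 1 moves C5ar1 to -0.028.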

How the data were processed

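The labels give 1 Cy3 array per sample, made from 200 ng of total RNA. The deposited scanner intensity values came from Agilent Feature Extraction 11.0.1.1 on probes placed on mm9, per the file headers, and the submitters' processing notes list version 11.1. The processed intensity was put on the log2 scale relative to the 75th percentile of its array. Spots with outlier flags (466 probes touched) and control spots were dropped. The 33749 of 56605 probes well above background on at least 4 arrays were kept, 1 per gene, the brightest. Probes were named through RefSeq accession (32994), symbol (10224) or older symbol (520), and 12867 kept the name in the files.

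The comparison was 1 two-sided limma model without covariates (limma 3.58.1, R 4.3.3, lmFit then eBayes, Benjamini-Hochberg over 22272 genes), tested on simulated data. Probes differ in response, so the brightest gene of a list and a list's summed signal describe spots and do not rank transcripts. Having 8 arrays limits precision. The main model did not pair the samples by replicate number, which is also the row on the slide in both groups. The 9 genes and all lists were chosen with earlier results of these data known. Named from the other complement genes were those past the threshold, the 8 with the widest differences among those measured on all 8 arrays, and those not passing the filter, of which 1 is not reported here. Of each marker list the brightest gene and those not passing were named, and for C3 and C3ar1 the 4 most alike genes. C1q chains, Cfd, Adipoq, Pparg, Lipe, Ly6g, Camp, Elane, S100a8, Cxcr2, Myh4, Kdr and Pecam1 were named after their values had been seen.

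The authors' deposited table holds log2 values, fold columns on the log2 scale, p-values and adjusted p-values for 28250 rows. The 2 remaining deposited statistics, a moderated t and a log odds score, play no part here. Each of its 8 value columns matched best the same-numbered array of the opposite group. The sample records define the groups used, and nothing in the files settles which source is correct. Alternatives covered background correction, scaling, the filter, the probe rule, variance models, array weights, the replicate number as a block, the authors' processing as rebuilt, and each array left out.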

Additional observations from a re-analysis of the deposited data

How the results depend on the processing

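The count of the 9 complement genes past the threshold was 0 with every alternative but median centring, where it was 1, C3ar1 higher in Pg. With that scaling 2384 of all 22272 genes passed, 2288 of them higher in Pg. For the other complement genes the count was 1, Cd93 lower in Pg, with normexp and an offset of 50, quantile normalization, median centring, probes well above background on all 8 arrays, trended and robust variance, array weights and the authors' processing as rebuilt. It was 6 of 49 with no filter on dim probes, beside 5160 of 37008 genes, 4649 of them lower in Pg. Susd4, Mbl2, Cpn2, C4bp and Colec10 joined Cd93 there, and none of these additions is above background on 4 arrays. The count for the other complement genes was 0 with the mean of all kept probes and with each array left out. Over all genes the count was 26 (8 higher, 18 lower in Pg), and it became 455 (271, 184) with normexp, 210 (153, 57) with quantile normalization, 2384 (2288, 96) with median centring, 5160 (511, 4649) with no filter, 261 (145, 116) with all 8 arrays required, 9 (2, 7) with the mean of kept probes, 559 (342, 217) with trended variance, 192 (105, 87) with array weights and 349 (237, 112) with the authors' processing as rebuilt. Left-out arrays gave 2 to 7. The cause of these shifts was not tested. With the replicate number as a block, all genes gave 0, the 9 gave 0 and the other complement genes gave 0. C3ar1 then differed by 0.36 ± 0.057 (SE), with an unadjusted p of 0.00187 and an adjusted p of 0.155 (limma). Same-numbered samples correlated at 0.065, -0.058, -0.041 and 0.23 in their deviations from the group means. Pg 1 and Pg 4 matched their own number best. The replicate number is also the row on the slide in both groups. So few correlations cannot settle whether same-numbered samples are paired.

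Directions turned for C2, to 0.015 with median centring, and for C5ar1, to 0.069 with the authors' processing as rebuilt. Median centring also moved Cd59a to 0.31 (unadjusted p = 0.0273, limma), Serping1 to -0.15, Cfb to -0.061 and C5ar1 to -0.23. The median difference of all genes was 0.14 with median centring and -0.10 with no filter. With 1 array left out, C2 ran from -0.29 to 0.094, C3 from -0.89 to -0.30, C4b from -0.81 to -0.23, Cfb from -0.39 to 0.0011, Cfp from -0.71 to -0.37, Serping1 from -0.43 to -0.19, C5ar1 from -0.77 to -0.028, Cd59a from 0.11 to 0.22 and C3ar1 from 0.28 to 0.46. Negative differences numbered 5 of the 9 without Co 1. Signal over background limits C5ar1, the only one of the 9 not well above background on every array.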
